A study of Mus musculus with 3 samples.

Results

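The genes *Dpt*, *Clec3b*, *Pi16*, *Dpp4*, *Ly6a*, *Ly6c1*, *Cd34*, *Cd248* and *Pdgfra*, which mark fibroblasts of the vessel adventitia and of the fascia under the skin, were followed through the healing of mouse skin wounds. They were taken by symbol and make up 9 of the 32285 genes in the deposited matrices. For each of them the level by day, the place in the section and the relation to spots rich in *Postn* were described. *Postn* encodes periostin, a matrix protein of granulation tissue and scar.

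Adventitial and fascial fibroblasts lie in loose connective tissue around vessels and between the skin and the muscle. *Pi16* and *Dpp4* mark a reservoir-like state of these cells in many tissues, from which other fibroblast states are thought to arise. After skin injury, fascial fibroblasts can be drawn into the wound, where fibroblasts form a *Postn*-rich granulation tissue.

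The tissue came from full-thickness excisional wounds that a biopsy punch had made in the back skin of C57BL/6J mice, described in the methods as adult males. No transgene, deletion or treatment other than the wound was given for these samples, and no separate sample of unwounded skin was analysed here. The paper's images of the sections label intact skin and muscle beside the wound site, and the spots were not divided by these labels. The groups were Day 3, Day 7 and Day 14 after injury, with 1 fresh-frozen section each, placed on a Visium slide. On that slide, barcoded spots capture polyadenylated RNA, and each captured molecule is counted once by its unique molecular identifier (UMI). A spot is a small region that can hold several cells, so a lower value can mean fewer cells of a type or less RNA per cell, and these cannot be told apart.

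The marked tissue held 664, 549 and 697 spots with 1772259, 4442962 and 4611723 UMIs on Day 3, Day 7 and Day 14, and the median spot held 1513, 6687 and 4827 UMIs. Levels are given as CPM, the UMIs of a gene per 1000000 UMIs summed over the marked spots. Intervals are exact 95% intervals that cover counting error only. With 1 section per day no test between days or regions was possible, and no difference below could be set against variation between animals. A reference list of 10 general fibroblast genes, such as *Dcn* and *Col1a2*, was detected in full on each day and gave 24072, 30899 and 16489 CPM. Members are therefore also given per 1000 UMIs of this list, which scales them to the fibroblast RNA in the same spots.

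A shared feature bears on the identity of 1 member. *Ly6c1* has a near copy, *Ly6c2*, which is known from monocytes. In the GENCODE M21 annotation of GRCm38 both lie on the minus strand of chromosome 15, *Ly6c1* from 75044018 to 75048830 and *Ly6c2* from 75108158 to 75111970. Their coding sequences, of 393 bases each, differ at 9 positions, an identity of 97.7%. The last 300 bases of the transcripts, nearest to the captured tail, were 93.5% identical. Between *Ly6c1* and the member *Ly6a* these values were 81.8% and 80.1%. The last 120 coding bases of both copies, each within 1 exon at chr15:75045405-75045524 and chr15:75108546-75108665, are shown to let the likeness be seen, with the 2 differing bases in capitals.
Ly6c1: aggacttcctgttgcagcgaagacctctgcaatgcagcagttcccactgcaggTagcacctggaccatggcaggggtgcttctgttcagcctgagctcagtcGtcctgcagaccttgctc
Ly6c2: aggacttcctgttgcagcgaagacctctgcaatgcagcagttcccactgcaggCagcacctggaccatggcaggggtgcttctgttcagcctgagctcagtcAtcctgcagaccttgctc
Reads that fall on such stretches cannot always be assigned to a copy, so the values of *Ly6c1* are uncertain to that extent. *Ly6c2* itself was counted at 15.8, 17.1 and 29.3 CPM at Day 3, Day 7 and Day 14, against 420.4, 243 and 213 CPM for *Ly6c1*.

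In the same annotation, *Dpt* (ENSMUSG00000026574) lies on chromosome 1 from 164796644 to 164824266, *Cd34* (ENSMUSG00000016494) on chromosome 1 from 194938819 to 194961279, *Clec3b* (ENSMUSG00000025784) on chromosome 9 from 123150946 to 123157432 and *Pi16* (ENSMUSG00000024011) on chromosome 17 from 29317680 to 29330593. *Cd248* (ENSMUSG00000056481) lies on chromosome 19 from 5068078 to 5070682 and *Pdgfra* (ENSMUSG00000029231) on chromosome 5 from 75152292 to 75198215, both on the plus strand like the 4 before. *Dpp4* (ENSMUSG00000035000) lies on the minus strand of chromosome 2 from 62330073 to 62412231, and *Ly6a* (ENSMUSG00000075602) on that of chromosome 15 from 74994877 to 74998031, in the same cluster as *Ly6c1* (ENSMUSG00000079018). UMIs were counted per gene, so exons and isoforms were not told apart.

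The members did not share a course over healing. *Dpt* and *Cd248* were highest on Day 7, together with *Postn*, whereas *Clec3b*, *Pi16* and *Ly6a* were lowest on that day and *Cd34* and *Ly6c1* were lower on each later day. *Dpt*, which encodes dermatopontin, a small matrix protein that binds decorin and aids collagen assembly, was measured at 173 CPM at Day 3 (154 to 193), 431 CPM at Day 7 (411 to 450.3) and 149 CPM at Day 14 (138 to 160.3). The Day 7 interval lay clear of both others, and the log2 ratio was 1.32 for Day 7 over Day 3 (1.14 to 1.497) and -1.53 for Day 14 over Day 7 (-1.66 to -1.41). *Cd248*, which encodes endosialin, a surface protein of stromal cells and pericytes, followed the same order with 157, 278 and 132 CPM. Its log2 ratio was 0.82 for Day 7 over Day 3 (0.63 to 1.02) and -1.07 for Day 14 over Day 7 (-1.21 to -0.93). For comparison, *Postn* was at 239.8, 3692 and 550.1 CPM.

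*Pi16*, which encodes a surface protein related to peptidase inhibitors, showed the widest swing. It stood at 605 CPM at Day 3 (569.8 to 643), 129.9 CPM at Day 7 (119 to 141) and 266 CPM at Day 14 (252 to 282). The log2 ratio was -2.22 for Day 7 over Day 3 (-2.37 to -2.07), 4.66-fold lower, and 1.04 for Day 14 over Day 7 (0.89 to 1.18). *Clec3b*, which encodes tetranectin, a plasminogen-binding protein, was at 327 CPM at Day 3 (301 to 355), 99.7 CPM at Day 7 (90.6 to 109) and 133 CPM at Day 14 (123 to 144). It was 3.28-fold lower on Day 7 than on Day 3, and its Day 14 value lay 2.46-fold below Day 3. *Dpp4*, which encodes a surface peptidase and was counted by only 55, 107 and 174 UMIs, stood at 31.0, 24.1 and 37.7 CPM. Its Day 7 and Day 14 values did not differ from Day 3 beyond counting error, with log2 ratios of -0.37 (-0.85 to 0.13) and 0.28 (-0.16 to 0.75), and Day 14 was above Day 7 by 0.65 (0.29 to 1.01). With each spot weighing the same, the first 2 ratios were -1.06 and -0.53.

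*Ly6a*, which encodes the lipid-anchored protein Sca-1, contributed 32.1%, 23.1% and 32.3% of all member UMIs and so weighs most in their sum. It was at 995 CPM at Day 3, 439.6 CPM at Day 7 and 518 CPM at Day 14, 2.26-fold lower on Day 7 than on Day 3. *Ly6c1*, also a lipid-anchored surface protein, was 1.73-fold lower on Day 7 than on Day 3, and Day 14 differed from Day 7 by a log2 ratio of -0.19 (-0.31 to -0.06). *Cd34*, a sialomucin of fibroblasts, endothelium and hair follicle stem cells, was at 301 CPM at Day 3 (276 to 327), 154 CPM at Day 7 (143 to 166) and 99.7 CPM at Day 14 (90.8 to 109), so each later section lay clear below the one before. *Pdgfra*, the alpha receptor for platelet-derived growth factor, was at 87.5 CPM at Day 3 (74.2 to 102) and 105 CPM at Day 7 (95.6 to 115), which overlapped, and at 52.7 CPM at Day 14 (46.3 to 59.8).

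**Figure D1:**
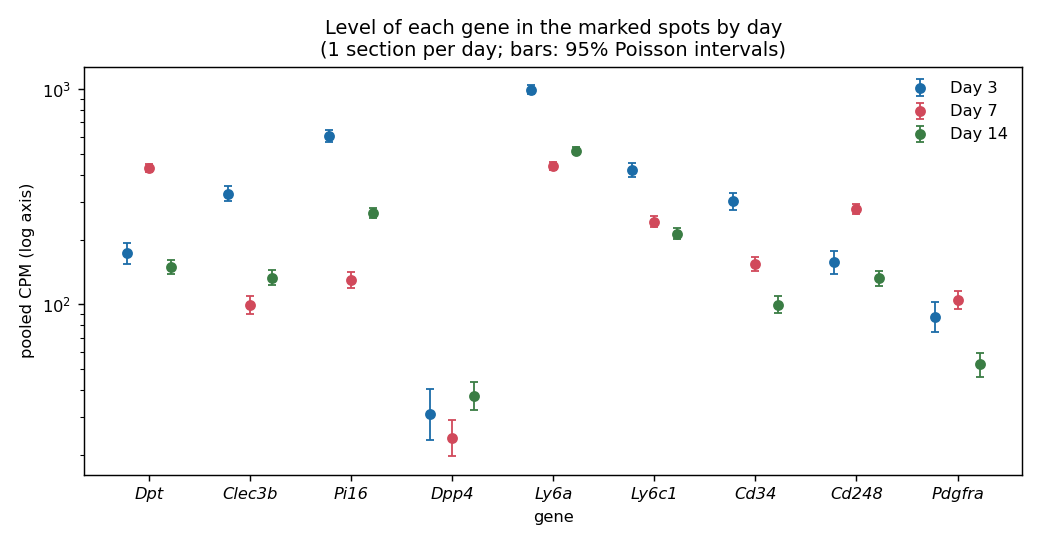
Pooled CPM of each of the 9 genes in the marked spots (vertical log axis) by gene (horizontal axis) and day (colour), with bars for the 95% Poisson interval and 1 section per day. *Dpt* and *Cd248* peak on Day 7 at 431 and 278 CPM, while *Pi16*, *Clec3b* and *Ly6a* have their lowest value on that day.

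All 9 members passed the minimum of 50 UMIs over the sections compared, and a gene was counted when it differed by at least 2-fold. For Day 7 over Day 3, 1 member was higher by that margin (*Dpt*), against 8.04% of the 10541 genes with enough UMIs, and 3 were lower (*Clec3b*, *Ly6a* and *Pi16*), against 6.49%. For Day 14 over Day 7, 1 was higher (*Pi16*), against 10.9%, and 2 were lower (*Dpt* and *Cd248*), against 7.34%. *Pi16* was just under 2-fold with other scalings, at 0.94 with TMM and 0.92 with DESeq2 size factors. For Day 14 over Day 3, 0 were higher, against 14.4%, and 3 were lower (*Cd34*, *Clec3b* and *Pi16*), against 6.83%. The median log2 ratio of the members was -0.79, -0.19 and -0.94 for these comparisons, against 0.04, 0.13 and 0.18 over all genes counted, so ratios to Day 14 are read relative to a shift above 0. These comparisons share sections and are not independent of each other.

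Summed, the members were at 3097 CPM at Day 3 (3015 to 3180), 1903 CPM at Day 7 (1862 to 1944) and 1602 CPM at Day 14 (1565 to 1639). Per 1000 UMIs of the fibroblast list the sum was 129, 61.6 and 97.1, so on that scale Day 7 was lowest and Day 14 lay between. The scale mattered for several members. *Cd34* and *Ly6c1*, whose CPM was lower on Day 14 than on Day 7, were higher per fibroblast UMI, with log2 ratios of 0.28 (0.11 to 0.45) and 0.72 (0.59 to 0.85). Both lay below the median over all genes on that scale, which was 1.03. *Dpt* and *Cd248* on Day 14 were below Day 3 in CPM, with log2 ratios of -0.22 (-0.41 to -0.02) and -0.25 (-0.45 to -0.04), and above it per fibroblast UMI, with 0.33 and 0.30. The median over all genes was 0.73 for that comparison per fibroblast UMI. *Pi16* and *Clec3b* kept the same order of days on both scales.

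The place of the members was described next. In each section the marked spots were graded into 5 layers by their distance to epidermis-rich spots relative to muscle-rich spots, which held at least 2 times the section's level of lists of 10 keratinocyte or 10 muscle genes, from layer 1 nearest the epidermis to layer 5 nearest the muscle. *Pi16* was highest in layer 5 on every day. On Day 3 its layers held 146, 251, 543, 1078 and 1255 CPM, on Day 7 94.02, 107, 76.4, 150.4 and 258 CPM, and on Day 14 127, 148, 169, 461 and 593 CPM. *Clec3b* was also highest toward the muscle, in layer 4 on Day 3 at 828 CPM (392 CPM in layer 5), and in layer 5 on Day 7 and Day 14 at 222 and 279 CPM. In layer 1 it stood at 121, 44.01 and 64.7 CPM on the 3 days. The genes that peaked on Day 7 were spread more evenly. *Dpt* was highest in layer 4 on Day 3 at 315 CPM, in layer 3 on Day 7 at 565 CPM and in layer 4 on Day 14 at 209 CPM, and *Cd248* stayed between 240.0 and 315 CPM over the 5 layers on Day 7.

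The layers also differed in other tissue. Muscle-list CPM was 17954, 51125 and 43687 in layer 1 and 111433, 100276 and 146354 in layer 5 on Day 3, Day 7 and Day 14, and the fibroblast list had its lowest value of each section in layer 5. The deep *Pi16* thus stood beside more muscle RNA and less fibroblast RNA than in the other layers, and the part of tissue makeup in its profile was not tested. On Day 3 *Cd34*, *Ly6c1* and *Ly6a* had their highest value in layer 4, at 578, 801 and 1583 CPM, and on Day 14 they had it there again, at 132, 253 and 692 CPM. *Pdgfra* in layer 4 was at 148, 82.4 and 55.6 CPM on the 3 days.

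**Figure D2:**
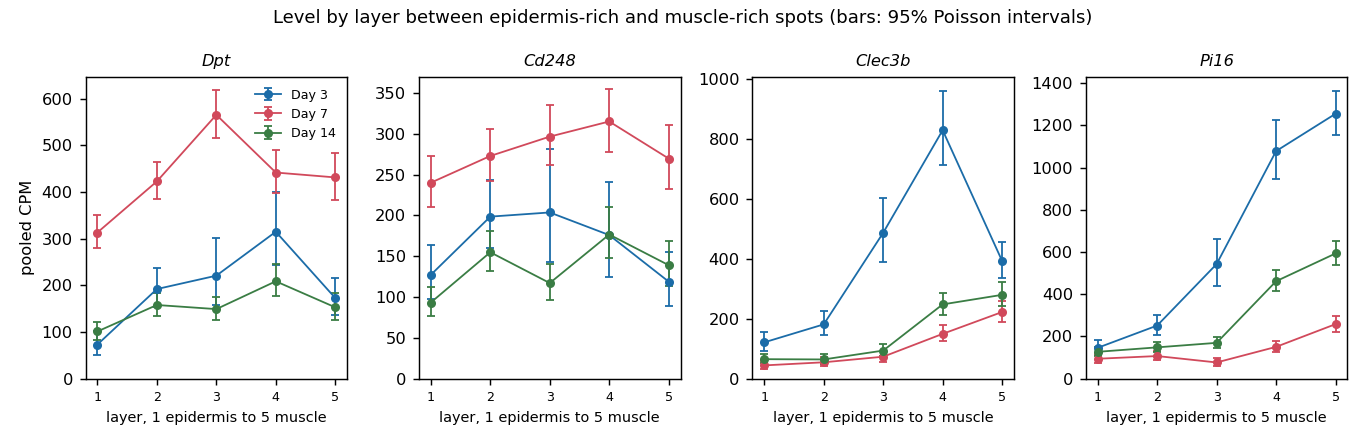
Pooled CPM (vertical axes from 0, own scale per gene) of *Dpt*, *Cd248*, *Clec3b* and *Pi16* in 5 layers from epidermis (1) to muscle (5), by day (colour), with 95% Poisson intervals. *Pi16* is highest in layer 5 on each day, at 1255, 258 and 593 CPM, and *Clec3b* is highest in layer 4 or 5.

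The label was checked against gene lists. When the spots with at least 500 UMIs were ranked by each list, *Pi16* and *Clec3b* followed a list of 20 other adventitial fibroblast genes, such as *Sema3c*, *Cd55* and *Scara5*. In the 25% of spots highest in this list *Pi16* was above the remaining spots by log2 ratios of 2.46, 0.76 and 1.69 on Day 3, Day 7 and Day 14, and *Clec3b* by 1.79, 1.63 and 1.77. They also followed lists of other cell types. *Pi16* was higher in the spots richest in the wound fibroblast and neutrophil lists on Day 3, by 1.104 and 1.01, in the muscle list on Day 7 and Day 14, by 1.16 and 0.81, and in the macrophage list on Day 14, by 0.87. *Clec3b* was higher in those richest in the muscle list on Day 7 and Day 14, by 0.95 and 1.03. *Cd34* and *Ly6c1* also followed the adventitial list, by 0.92, 0.78 and 0.99 and by 1.03, 0.54 and 0.39. For the adventitial list *Pdgfra* stood at 0.67 (0.09 to 1.21), -0.56 (-0.95 to -0.19) and -0.13 (-0.67 to 0.39). It was thus lower in the spots richest in that list on Day 7. The general fibroblast list gave a different result for *Pi16*. *Dpt* was above 0 in the spots richest in this list on every day, by 0.9996, 0.74 and 1.07, whereas *Pi16* was at 0.01 (-0.17 to 0.20), -1.08 (-1.36 to -0.81) and 0.54 (0.36 to 0.72). *Clec3b* was higher there by 1.75 on Day 3 and 1.01 on Day 14. *Cd34* and *Ly6c1* were higher there by 1.60 and 1.24 on Day 3, more than for the adventitial list, and by 0.55 and 0.63 on Day 14. On Day 7 the general fibroblast list ranked behind the muscle and macrophage lists for *Clec3b*, which stood at 0.95 and 0.25. For *Cd34* it ranked behind a mural cell list and the macrophage list, at 0.29 and 0.23. For *Ly6c1* it ranked behind an endothelial and the mural cell list, at 0.24 and 0.19.

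Endothelium and hair follicle stem cells are other known sources of *Cd34*, and endothelium of *Ly6a* and *Ly6c1*. In the spots highest in a list of 10 endothelial genes, *Cd34* was above the rest by 0.46 (0.18 to 0.73), 0.10 (-0.15 to 0.35) and 0.16 (-0.18 to 0.48) at Day 3, Day 7 and Day 14, and *Ly6c1* by 0.57, 0.24 and 0.28 with intervals above 0. *Ly6a* was at 0.01, 0.12 and 0.21, of which only the last had an interval above 0. For the follicle stem cell list *Cd34* was at 0.49, -0.28 and 0.19. The endothelial list as a whole stood at 643, 743 and 253 CPM, with all 10 genes detected each day, and 10 of 10 were at least 2-fold lower on Day 14 than on Day 7. The part of endothelial RNA in the lower Day 14 value of *Cd34* was not tested.

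Across the spots with at least 500 UMIs the members were only weakly related to each other. Over 36 pairs the median Pearson r of log-scaled values was 0.14, 0.06 and 0.09 at Day 3, Day 7 and Day 14, over 520, 539 and 689 spots that share a library. The highest values were 0.32 for *Clec3b* with *Ly6a* on Day 3, 0.26 for *Dpt* with *Cd248* on Day 7 and 0.33 for *Clec3b* with *Pi16* on Day 14. After each spot was thinned to 1000 UMIs the medians were 0.07, 0.01 and 0.03, and the highest pairs were at 0.21, 0.13 and 0.14, so the relations stayed weak. Among 1314 genes with at least 200 UMIs in every section, the 5 most like the summed members by mean r over the 3 sections were *Col1a2* at 0.49, *Col1a1* at 0.47, *Sparc* at 0.41, *Col3a1* at 0.40 and *Fbn1* at 0.35.

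Whether the members avoid or enter *Postn*-rich tissue was then asked. *Postn* was pooled over each spot and its adjacent marked spots, up to 6, because it was sparse on Day 3, and the 25% of spots with the highest value were called *Postn*-rich. These were 166, 137 and 174 spots, with *Postn* at 465, 5539 and 1209 CPM inside and 101, 2322 and 355 CPM in the rest of the Day 3, Day 7 and Day 14 sections. The weakest spots inside lay at 258, 3513 and 565 CPM of pooled *Postn* and the strongest outside at 257.4, 3488 and 564.6 CPM. The rule ranks spots within a section, so a *Postn*-rich spot of Day 3 holds far less *Postn* than the rest of the Day 7 section. *Postn* itself is therefore not a result of this contrast. Contrasts are also given per UMI of the fibroblast list. That scale lowers every log2 ratio by the ratio of the list itself, 0.28, 0.52 and 0.86 on Day 3, Day 7 and Day 14. The median over all genes counted was 0.10, -0.01 and 0.01 in CPM. On the fibroblast scale that median thus lies below 0 on each day.

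**Figure D3:**
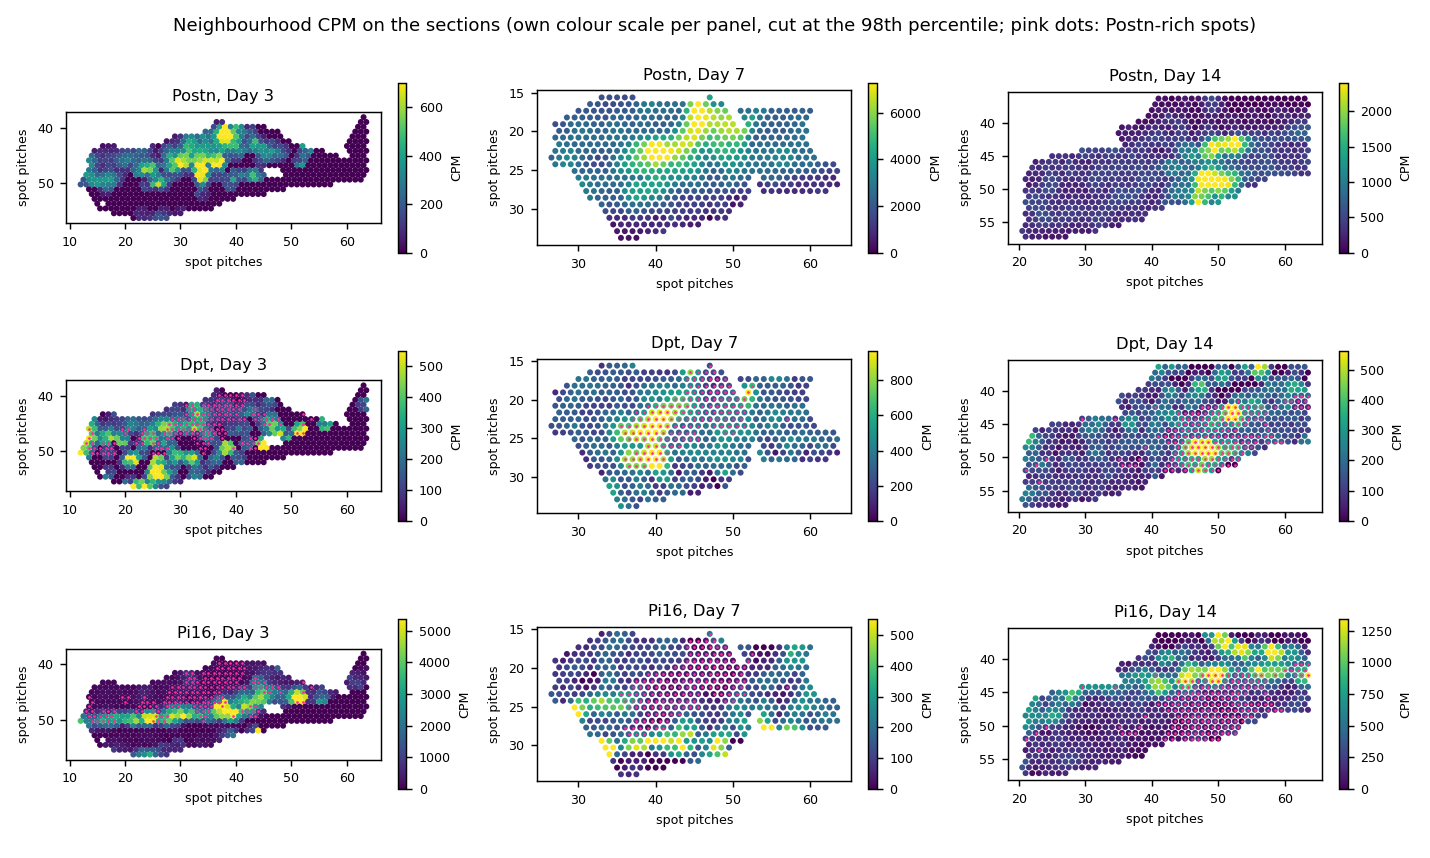
*Postn* (top row), *Dpt* (middle) and *Pi16* (bottom) on the Day 3, Day 7 and Day 14 sections, as CPM pooled over each spot and its neighbours, with axes in spot pitches, an own colour scale per panel and pink dots on the *Postn*-rich spots. *Dpt* is bright among the dots on Day 7 and Day 14, while *Pi16* forms a band beside them on Day 3 and Day 7, and on Day 14 lies mostly outside them with some bright spots at their edge.

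*Dpt* was higher in *Postn*-rich spots on the later days. Inside and outside the *Postn*-rich spots it was at 184 and 166 CPM at Day 3, at 586 and 315 CPM at Day 7 and at 261 and 116 CPM at Day 14. The log2 ratios were 0.15 (-0.19 to 0.48), 0.89 (0.76 to 1.03) and 1.18 (0.95 to 1.40), so the Day 3 difference was within counting error and the later ones were not. Per fibroblast UMI the ratios were -0.13 (-0.47 to 0.20), 0.38 (0.25 to 0.51) and 0.32 (0.09 to 0.54). On that scale the Day 7 value turned to -0.86 with all spots of at least 1000 CPM of pooled *Postn*, and the Day 14 value to -0.033 with each spot weighing the same. *Cd248* was higher in *Postn*-rich spots on each day, at 228 against 113 CPM, 356 against 219 CPM and 206 against 110.5 CPM. Its log2 ratios in CPM were 1.01, 0.70 and 0.90, and per fibroblast UMI they were 0.73 (0.38 to 1.09), 0.18 (0.02 to 0.35) and 0.04 (-0.20 to 0.28). On the fibroblast scale the Day 3 value turned to -0.25 with the highest 50% of spots and the Day 7 value to -0.27 with the highest 10%. The Day 14 value was 0.54 per UMI of *Dcn* alone.

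*Pi16* was scarcer in *Postn*-rich spots on Day 3 and Day 7. It was at 503 CPM inside against 668 CPM outside on Day 3, 68.2 against 176 CPM at Day 7 and 303 against 255 CPM at Day 14. The log2 ratios were -0.41 (-0.60 to -0.22), -1.37 (-1.66 to -1.08) and 0.24 (0.06 to 0.43). Per fibroblast UMI its log2 ratios were below 0 on every day, at -0.69 (-0.88 to -0.50), -1.88 (-2.18 to -1.60) and -0.61 (-0.80 to -0.43). The median over all genes is also below 0 on this scale, and on Day 14 *Pi16* lay above that median on both scales. The Day 3 value on this scale turned to 0.998 when spots were chosen by a list of 10 wound fibroblast genes in place of *Postn*, and the Day 14 value was -0.11 per UMI of *Dcn* alone. The Day 3 value in CPM rested on the choice of spots, being 0.37 with the highest 50% of spots, 0.069 with *Postn* of the spot alone and 0.33 with each spot weighing the same. The Day 7 value stayed below 0 under each alternative run, between -1.74 with the highest 10% of spots and -0.23 with all spots of at least 1000 CPM of pooled *Postn*. The Day 14 value was -0.14 with each spot weighing the same. Over the 4 equal classes of spots from lowest to highest *Postn*, *Pi16* was at 683, 407, 806 and 503 CPM at Day 3, at 199, 167, 173 and 68.2 CPM at Day 7 and at 301, 230.2, 259 and 303 CPM at Day 14. In CPM the low value was thus limited to the highest class on Day 7, and the other sections showed no order. Per 1000 fibroblast UMIs it was lower in each next class on Day 3, at 97.6, 29.4, 26.0 and 18.6, and on Day 14, at 29.8, 16.7, 16.2 and 12.01, and on Day 7 it was at 11.1, 5.93, 6.17 and 1.83. The fibroblast list itself was at 6994, 13825, 31003 and 27016 CPM over the Day 3 classes. The muscle list per 1000 fibroblast UMIs was also lower in each next class there, at 15978, 4798, 1016 and 968. The Day 3 order on that scale was thus not particular to *Pi16*. *Clec3b* was at 327 against 327 CPM at Day 3, 84.6 against 111 CPM at Day 7 and 153 against 127 CPM at Day 14. Its log2 ratios were -0.00 (-0.25 to 0.25), -0.39 (-0.68 to -0.11) and 0.27, the last with an interval that reached 0. In the 10% of spots highest in *Postn*, its Day 7 value was -2.26. Per fibroblast UMI the *Clec3b* ratios were -0.28 (-0.53 to -0.03), -0.91 (-1.20 to -0.62) and -0.59 (-0.86 to -0.33). The last of these was -0.09 per UMI of *Dcn* alone. Like *Pi16*, *Clec3b* on Day 14 lay above the median over all genes on both scales.

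*Pdgfra* and *Cd34* had their largest excess in *Postn*-rich spots on Day 3. *Pdgfra* was at 130.3 CPM inside against 61.1 CPM outside on Day 3, 120.5 against 93.3 CPM at Day 7 and 51.2 against 53.1 CPM at Day 14. Its log2 ratios were 1.09 (0.62 to 1.57), 0.37 (0.10 to 0.64) and -0.05 (-0.52 to 0.39), and per fibroblast UMI 0.81 (0.34 to 1.29), -0.15 (-0.42 to 0.12) and -0.91 (-1.37 to -0.47). The last of these was -0.41 per *Dcn* UMI. *Cd34* was at 376 against 254 CPM, 164 against 146 CPM and 102 against 98.9 CPM, with log2 ratios of 0.56 (0.31 to 0.81), 0.17 (-0.05 to 0.39) and 0.05 (-0.27 to 0.37). Both were thus above the rest on Day 3 and within counting error of it on Day 14 in CPM. *Ly6a* was at 1193 against 872 CPM, 456 against 427 CPM and 670.0 against 473 CPM, with log2 ratios of 0.45 (0.32 to 0.59), 0.09 (-0.04 to 0.22) and 0.50 (0.37 to 0.63). *Ly6c1* was at 477 against 386 CPM, 226 against 255 CPM and 261 against 199 CPM, with log2 ratios of 0.31 (0.09 to 0.52), -0.17 (-0.35 to 0.01) and 0.39 (0.18 to 0.59). In CPM both were higher inside on Day 3 and Day 14 and within counting error on Day 7. By the wound fibroblast list, *Ly6c1* and *Cd34* turned to -0.26 and -0.16 on Day 3. Per fibroblast UMI *Ly6a* was at 0.17, -0.42 and -0.35, *Ly6c1* at 0.03, -0.69 and -0.47 and *Cd34* at 0.28, -0.35 and -0.81, so on that scale all 3 were lower inside on Day 7. On either scale *Ly6a* and *Cd34* lay above the median over all genes on Day 7, which was -0.01 in CPM, and *Ly6c1* lay below it. On Day 14 the direction rested on the fibroblast genes used, since per *Dcn* UMI *Ly6a* was at 0.15, *Ly6c1* at 0.035 and *Cd34* at -0.30. With the highest 50% of spots on Day 3, *Ly6a*, *Cd34* and *Pdgfra* turned to -0.63, -0.18 and -0.46 per fibroblast UMI. *Dpp4* had 23, 40 and 52 UMIs inside, and in CPM a difference was not detectable at this depth on Day 3 and Day 7. On Day 14 its log2 ratio in CPM was 0.53 (0.03 to 1.005). Its log2 ratios per fibroblast UMI were -0.06 (-0.90 to 0.76), -0.83 (-1.43 to -0.24) and -0.33 (-0.83 to 0.15). On that scale it was thus lower inside on Day 7, and the Day 14 value was 0.17 per *Dcn* UMI.

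**Figure D4:**
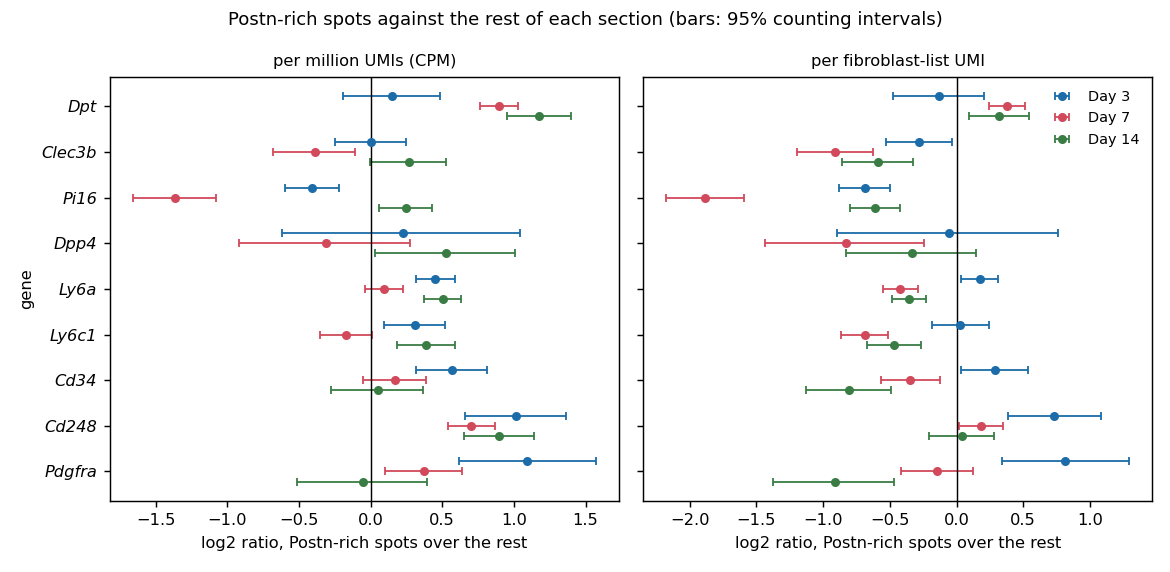
Log2 ratio of *Postn*-rich spots over the rest of the section for each gene (vertical axis) and day (colour), in CPM (left) and per UMI of the fibroblast list (right), with 95% counting intervals and a line at 0. *Dpt* and *Cd248* lie at or right of 0 in CPM, and *Pi16* lies at -1.37 on Day 7. On the right panel every gene of a day lies further left by the ratio of the fibroblast list, 0.28, 0.52 and 0.86 on Day 3, Day 7 and Day 14.

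By the 2-fold margin, 2 members were higher in *Postn*-rich spots on Day 3 (*Cd248* and *Pdgfra*), against 5.57% of the 5669 genes with enough UMIs, and 0 were lower, against 6.44%. With muscle-rich spots left out of the rest, 0 were 2-fold higher on Day 3, and the share over all genes is not given for that choice. On Day 7, 0 were higher, against 1.92%, and 1 was lower (*Pi16*), against 5.66%. On Day 14, 1 was higher (*Dpt*), against 2.39%, and 0 were lower, against 1.41%. The members' median log2 ratio was 0.31, 0.09 and 0.39, beside 0.10, -0.01 and 0.01 over all genes counted. The sum of the members had log2 ratios in CPM of 0.26, 0.24 and 0.49. The direction was not stable on Day 3, with -0.089 when muscle-rich and epidermis-rich spots left the rest and -0.0094 when they left both groups, nor on Day 7, with -0.070 for the highest 10% of spots and -0.11 by the wound fibroblast list. Per fibroblast UMI it was -0.02 (-0.09 to 0.06), -0.28 (-0.34 to -0.22) and -0.37 (-0.44 to -0.30), and the Day 14 value turned to 0.13 per *Dcn* UMI. On both scales the sum lay above the median over all genes counted on each day.

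Other features moved with *Postn*. The median spot held 2441 UMIs inside against 1294.5 in the rest on Day 3, 13221 against 4936 on Day 7 and 5228.5 against 4712 on Day 14. The fibroblast list was higher inside by log2 ratios of 0.28, 0.52 and 0.86, a list of 10 macrophage genes by 0.87, 0.82 and 1.02 and the endothelial list by 0.67, 0.33 and 0.23, while the muscle list was lower, with log2 ratios of -1.05, -1.21 and -0.34. All genes of these lists were detected on each day. Muscle-rich spots numbered 15 of 211, 0 of 87 and 1 of 139 inside. With muscle-rich and epidermis-rich spots left out of both groups, *Dpt* was at 0.10, 0.86 and 1.18, *Pi16* at -0.87, -1.38 and 0.15 and *Cd248* at 0.71, 0.62 and 0.82. The part of depth and of immune cells was not tested.

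The distance from the *Postn*-rich spots gave the profile at their border. On Day 7 *Pi16* was at 68.2 CPM inside (56.9 to 81.0) and at 198 CPM (159 to 243) within 1.5 spot pitches, and it remained at 187 and 178 CPM up to 3.5 and 6.5 pitches. Over 6.5 pitches, in 42 spots, it was at 94.2 CPM (62.6 to 136), which overlapped the interval inside. On Day 3 it was highest within 1.5 pitches, at 949 CPM (860.1 to 1044) against 503 CPM inside and 456 CPM up to 3.5 pitches. On Day 14 the same band held 361 CPM (318 to 408), against 303 CPM inside (270.4 to 338), and values further out were lower, at 268 and 179 CPM. *Clec3b* in that band was at 428, 112 and 173 CPM, against 327, 84.6 and 153 CPM inside. The *Clec3b* intervals of these places overlapped on each day. *Dpt* on Day 7 was lower with each band up to 6.5 pitches, from 586 inside to 398, 329 and 261 CPM, and on Day 14 was at 261 inside and between 100.3 and 124 CPM up to 6.5 pitches. The farthest band held 51, 42 and 8 spots and is not read on Day 14.

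**Figure D5:**
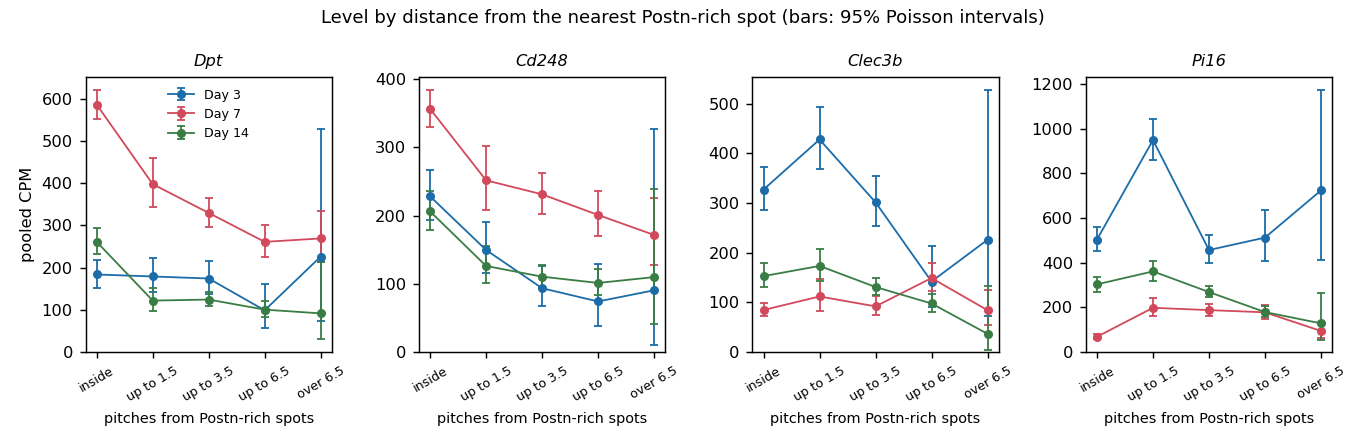
Pooled CPM (vertical axes from 0, own scale per gene) of *Dpt*, *Cd248*, *Clec3b* and *Pi16* in the *Postn*-rich spots (inside) and in bands of distance from them in spot pitches, by day (colour), with 95% Poisson intervals. *Dpt* and *Cd248* are highest inside on Day 7 and Day 14, and *Pi16* on Day 7 is at 68.2 CPM inside and 198 CPM in the next band.

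The 20 other adventitial genes were split in a like way. For Day 7 over Day 3, with 19 genes counted, 3 were at least 2-fold higher, against 8.04% of all genes counted, and 6 lower, against 6.49%. The higher ones were *Mfap5* with 71.7 and 267 CPM, *Col14a1* with 127 and 347 CPM and *Fbn1* with 341 and 702 CPM at Day 3 and Day 7. The lower ones were *Scara5* (67.7 and 14.6 CPM), *Pcolce2* (57.6 and 20.5 CPM), *Efemp1* (137 and 37.6 CPM), *Adgrd1* (95.4 and 44.6 CPM), *Emilin2* (102 and 36.2 CPM) and *Procr* (44.6 and 11.7 CPM). From Day 7 to Day 14, 1 was higher, *Creb5*, against 10.9%, and 2 were lower, *Mfap5* and *Fbn1*, against 7.34%, which is near these shares. In *Postn*-rich spots of Day 7, *Mfap5* had a log2 ratio of 1.08 and *Scara5*, a ferritin receptor, of -1.31, and these were the only list genes past 2-fold. The median of the list was -0.26, -0.01 and -0.40 for Day 7 over Day 3, Day 14 over Day 7 and Day 14 over Day 3.

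Of a list of PDGF ligands and the beta receptor, 2 of 5 (*Pdgfrb* and *Pdgfd*) were at least 2-fold higher on Day 7 than on Day 3. None was lower by that margin, and the shares of all genes counted were 8.04% and 6.49%. *Pdgfd* was only just past the margin, at a low level. *Pdgfrb*, the beta receptor of mural cells and fibroblasts, was at 71.7, 169.9 and 62.7 CPM and *Pdgfd* at 6.21, 12.6 and 8.67 CPM at Day 3, Day 7 and Day 14. *Pdgfc*, a ligand of the alpha receptor, was at 20.3, 36.01 and 10.2 CPM and had a log2 ratio of 1.13 in *Postn*-rich spots on Day 7. From Day 7 to Day 14 *Pdgfc* and *Pdgfrb* were at least 2-fold lower, against 7.34%, and 0 were higher, against 10.9%. *Pdgfa* stood at 19.2, 31.3 and 31.7 CPM and *Pdgfb* at 27.1, 39.6 and 23.2 CPM.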

How the data were processed

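The samples were 3 Visium sections of mouse wounds, 1 per day. Per the labels and the methods, libraries were sequenced on MGISeq2000. The submitters' processing notes name Space Ranger 1.3.0 and the build mm10, and the sources used here gave no annotation version. The authors deposited raw UMI counts per gene and spot, not normalized, with spot positions, and the spots marked as tissue were used here. Depth was 1772259 to 4611723 UMIs per section, and intervals cover counting error only.

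UMIs were summed over spots and divided by the sum over all genes. Poisson intervals and exact conditional intervals of ratios (scipy 1.17.1, numpy 2.4.6, pandas 2.3.3, Python 3.11.15) were computed for 1 section per day, so no test was run. Genes with at least 50 UMIs entered the 2-fold counts. Spots of at least 500 UMIs entered list rankings and correlations. Gene positions and the sequences came from GENCODE M21 (GRCm38), which held 32158 of the 32285 identifiers, aligned with Biopython 1.88.

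Alternatives were TMM (edgeR 4.0.16) and DESeq2 1.42.0 size factors, used for scaling only, the mean of spot CPM, scaling to fibroblast genes, other *Postn* limits and spots left out. Doublet calling does not apply to spots. The genes named are the members, the listed marker genes, *Postn*, *Ly6c2* and the 5 genes most like the member sum. The members and lists were chosen with earlier results of these data known.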

Additional observations from a re-analysis of the deposited data

Results flagged for a closer look

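The following values differed in sign between days, with intervals clear of 0 in each, and with 1 section per day this difference was not tested. *Pi16* in *Postn*-rich spots over the rest had log2 ratios in CPM of -0.41, -1.37 and 0.24 at Day 3, Day 7 and Day 14. Per fibroblast UMI, *Ly6a* was at 0.17, -0.42 and -0.35 and *Cd34* at 0.28, -0.35 and -0.81 on these days. *Pdgfra* was at 0.81 on Day 3 and -0.91 on Day 14 on the same scale. That scale lowers every gene by the ratio of the fibroblast list itself, 0.28, 0.52 and 0.86 on the 3 days. In CPM *Ly6a* was at 0.45, 0.09 and 0.50 and *Cd34* at 0.56, 0.17 and 0.05. In CPM none of *Ly6a*, *Cd34* and *Pdgfra* differed in sign between days with intervals clear of 0. Per *Dcn* UMI the Day 14 values of *Ly6a*, *Cd34* and *Pdgfra* were 0.15, -0.30 and -0.41.

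Member UMIs were also counted under spots not marked as tissue, which no comparison used. They numbered 2466, 8344 and 5079 on Day 3, Day 7 and Day 14, or 1448, 1292 and 1077 CPM of the UMIs there against 3097, 1903 and 1602 CPM in the marked spots. *Pi16* on Day 7 was higher outside the marked tissue than in it, at 176 against 129.9 CPM, a log2 ratio of 0.44 (0.29 to 0.58).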

How the results depend on the processing

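Leaving out a replicate does not apply to 1 section per day. No paired analysis was possible because each day had 1 section. The limit of 1000 CPM of pooled *Postn* gave no spots on Day 3. The cause of the differences below was not tested, and shallow counts on Day 3 limit *Dpp4* and *Pdgfra* most. Of 189 member ratios between days under an alternative, 133 stayed within the interval of the reported value, 50 moved past it and 6 reversed, and of 261 member contrasts in CPM for *Postn*-rich spots 190, 64 and 7 did so.

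For the member sum between days, Day 7 over Day 3 was -0.83 as the mean of spot CPM, -0.80 without muscle-rich spots and -1.06 per fibroblast UMI. Day 14 over Day 7 was -0.055, -0.35 with TMM, -0.37 with DESeq2 size factors and 0.66 per fibroblast UMI, a reversal. Day 14 over Day 3 was -0.89 as the mean of spot CPM, -1.06 without muscle-rich spots, -1.05 with TMM, -1.08 with DESeq2 factors and -0.41 per fibroblast UMI. Per fibroblast UMI, 0 members were 2-fold higher and 5 lower for Day 7 over Day 3, 4 higher and 0 lower for Day 14 over Day 7 and 1 lower for Day 14 over Day 3. TMM and DESeq2 factors gave 0 higher for Day 14 over Day 7, against 9.47% and 9.24% of all genes counted. For Day 14 over Day 3 they gave 5 lower, against 8.03% and 8.55%. Leaving out muscle-rich spots also gave 5 lower for that comparison, against 7.63%. The mean of spot CPM gave 1 lower for Day 14 over Day 7, against 7.14%. Per fibroblast UMI, Day 14 over Day 7 reversed to 0.72 for *Ly6c1* and 0.28 for *Cd34*, and Day 14 over Day 3 to 0.33 for *Dpt* and 0.30 for *Cd248*, which were 0.18 and 0.033 as the mean of spot CPM. The median of all genes was then shifted by -0.32, 1.03 and 0.73 per fibroblast UMI and by 0.27, 0.09 and 0.36 as the mean of spot CPM. The shares of genes higher and lower were 18.7% and 8.12% (Day 7 over Day 3) and 24.3% and 8.42% (Day 14 over Day 3) as the mean of spot CPM, 4.10% and 13.7%, 52.5% and 1.49%, and 34.6% and 3.04% per fibroblast UMI for the 3 comparisons in turn, and 19.6% and 15.1%, 18.8% and 15.5%, and 24.4% and 14.5% with no gene minimum.

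The member sum in *Postn*-rich spots of Day 3 was 0.15 with the highest 10% of spots, 0.62 with 50%, 0.44 with *Postn* of the spot alone, 0.061 by the wound fibroblast list, 0.085 with muscle-rich spots out of the rest, -0.089 with epidermis-rich spots out too, 0.64 as the mean of spot CPM and -0.0094 with both out of both groups, a choice made after seeing the data. On Day 7 it was -0.070 with 10%, 0.17 for the spot alone, 0.58 at 1000 CPM and -0.11 by the wound list, and on Day 14 0.72 with 10%, 0.31 with 50%, 0.69 at 1000 CPM and 0.31 as the mean of spot CPM. Per fibroblast UMI it was 0.072 with 10%, -0.71 with 50%, -0.13 for the spot alone, 0.67 by the wound list, 0.12 without muscle-rich and 0.068 without both kinds in the rest on Day 3. On Day 7 it was -0.54 with 10%, -0.95 at 1000 CPM and -0.56 by the wound list. On Day 14 it was 0.13 per *Dcn* UMI, -0.25 for the spot alone, -0.27 without muscle-rich spots, -0.28 without both kinds in the rest or in either group and -0.59 as the mean of spot CPM.

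Members 2-fold higher in *Postn*-rich spots of Day 3 numbered 1 by the wound list, with 1 lower, 1 with spots of at least 500 UMIs, and 0 for the spot alone and with muscle-rich spots, or these and epidermis-rich spots, left out. On Day 7, 2 were lower with 10% and by the wound list and 0 with 50%, for the spot alone and at 1000 CPM, where 2 were higher, and 1 was higher as the mean of spot CPM. On Day 14, 3 were higher with 10% and at 1000 CPM and 0 with 50% and as the mean of spot CPM. Shares over all genes are not given for these choices of spots, so the counts are not read as results about the members. Members whose sign reversed on Day 3 were *Pi16* at 0.37 with 50%, 0.069 for the spot alone, 0.39 by the wound list and 0.33 as the mean of spot CPM, and *Ly6c1* and *Cd34* at -0.26 and -0.16 by the wound list. Per fibroblast UMI they were *Ly6a*, *Cd34*, *Cd248* and *Pdgfra* at -0.63, -0.18, -0.25 and -0.46 with 50%, *Ly6a* at -0.033 for the spot alone, *Pi16* at 0.998 by the wound list, and *Ly6a* and *Pdgfra* at -0.037 and -0.032 as the mean of spot CPM. On Day 7 these were *Cd248* at -0.27 with 10% and -0.062 by the wound list and *Dpt* at -0.86 at 1000 CPM, and on Day 14 *Ly6a* and *Ly6c1* at 0.15 and 0.035 per *Dcn* UMI, *Dpt* at -0.033 as the mean of spot CPM and, in CPM, *Pi16* at -0.14.

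The member sum in the first band over the *Postn*-rich spots, 0.10 on Day 3 and -0.08 on Day 7, was -0.011 and 0.14 with 10%. The middle 3 layers over the outer 2, at 0.52, 0.04 and 0.06 on the 3 days, were at 0.66, 0.25 and 0.20 with rich spots at 4 times the section's level. The median correlations were 0.066, 0.011 and 0.028 after thinning.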
